A study of Drosophila virilis and Drosophila willistoni and Drosophila miranda with 119 samples.

Results

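The stage 5 mRNA pool of Drosophila ananassae was set against its stage 2 pool, gene by gene, and the change was compared with that in 12 other Drosophila species. Members were the genes with an ortholog in each of 14 species that reached 1 FPKM (fragments per kilobase, scaled to the fragments sequenced) at stage 2 or stage 5 in D. ananassae. They numbered 3363 of 3764 genes (89.3%), and 3325 of them had the mean of at least 1 FPKM over the 26 columns that was required for testing. Change stands for log2(FPKM+1) at stage 5 minus that at stage 2, and departure for the D. ananassae change minus the median change of the other 12 species.

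The series holds 119 single embryos of 14 species, 64 at stage 2 and 55 at stage 5, with 3 to 7 per species and stage. The D. ananassae groups were 3 stage 2 embryos and 3 other embryos at stage 5, staged by imaging and sequenced as polyA RNA with raw data labelled as not mixed with D. melanogaster; the labels name neither strain nor sex for them. The other 12 species were D. simulans, D. sechellia, D. mauritiana, D. yakuba, D. santomea, D. erecta, D. pseudoobscura, D. persimilis, D. miranda, D. willistoni, D. mojavensis and D. virilis. D. melanogaster was used at stage 2 only. The raw data of D. mojavensis, D. persimilis, D. santomea, D. sechellia and D. simulans, and the stage 2 data of D. virilis, are labelled as mixed with those of D. melanogaster. D. pseudoobscura and D. miranda were labelled total RNA and came from earlier work, with late stage 5 embryos of both sexes from crosses of MSH22 mothers with SP138 fathers (D. miranda) and of Flagstaff 14 mothers with PP1134 fathers (D. pseudoobscura). A stage 2 embryo of D. pseudoobscura is marked as perhaps unfertilized. The authors' table gives 1 value per species and stage with the embryos combined, so species served as replicates and the spread between embryos entered no test. Sequencing depth is unknown.

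The egg is loaded by the mother with mRNA that directs the first nuclear divisions while the embryo's own genome is silent. During the maternal-to-zygotic transition, part of this mRNA is degraded and zygotic transcription begins, first of early patterning and cellularization genes and then broadly. Stage 2 precedes zygotic transcription, and at stage 5 membranes enclose the blastoderm nuclei. Gene functions named below are known from D. melanogaster.

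The stage labels of D. ananassae matched their markers. Maternal osk went from 347 to 1.86e-05 FPKM, bcd from 35.2 to 0.257, aret from 242 to 3.24, pgc from 182 to 22.2 and gnu from 292 to 49.8. Zygotic ftz, prd, twi, sna, Kr, sisA, halo and Dtg were at most 0.0722 FPKM (Dtg) at stage 2 and between 51.3 (Kr) and 663 (halo) at stage 5. No yolk protein gene is in the table, the eggshell gene Fcp3C was at 0.793 and 2.32 FPKM, and the muscle gene Zasp52 at 0.0128 and 5.10. Other lists of cells outside the early embryo were higher. The 1 tested neuron gene was at 83.3 and 249 FPKM. Medians over 2 blood cell genes were 5.43 and 33.4, and over 2 testis genes 42.4 and 102. Less the column medians, the neuron gene was near the median of the other species (differences of 0.0094 at stage 2 and -0.0078 at stage 5). The blood cell genes were below it (medians of -0.93 and -0.38), and the testis genes were above it at stage 5 only (-0.03 and 3.33). The testis genes had a median change of -0.102, against species medians of -4.71 to -1.36 elsewhere. Of these 2 testis genes, 1 had a change above all 12. In D. ananassae 286 genes were listed at exactly 0 at stage 2 and 32 at stage 5, and a further 21 and 14 were above 0 but below 0.0001 FPKM. Either can be a failed estimate.

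Within D. ananassae, without a test, 1379 of the tested members (41.5%) were higher at stage 5 by at least 1 on the log2(FPKM+1) scale, beside 39.4% of all tested genes, and 680 (20.5%) were lower by at least 1, beside 19.5%. These counts depend on the scaling of the columns. They were 362 higher and 1789 lower when all columns were scaled to an equal total over genes under 100000 FPKM, which moved the median change of members from 0.58 to -1.2. Of all members, 2908 were at 1 FPKM or more at both stages. Another 327 were zygotic-only, that is below 1 at stage 2 and at 1 or more at stage 5. The remaining 128 were cleared, at 1 or more at stage 2 and below 1 at stage 5.

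Of the 327 zygotic-only genes, 83 were zygotic-only in all 12 other species, 112 in 7 to 11, 122 in 1 to 6 and 10 in none. Of the 128 cleared genes, 2 were cleared in all 12, 28 in 7 to 11, 67 in 1 to 6 and 31 in none. Each other species had 287 (D. willistoni) to 376 (D. virilis) zygotic-only genes and 94 (D. willistoni) to 162 (D. simulans) cleared ones. The D. ananassae totals thus lay within those of the other species. How many genes were zygotic-only or cleared in another species alone was not determined. Among those cleared in D. ananassae alone were cin, which acts in molybdenum cofactor synthesis (41.9 to 0.272 FPKM), RYBP, a Polycomb partner (37.3 to 0.657), and the zinc finger gene Cf2 (33.0 to 0.340). These 3 had the highest stage 2 levels in that set and were chosen after their values were seen.

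Over the tested genes Spearman's rho of the D. ananassae change with the median of the other species was 0.763, given as a description since genes are not independent. The median departure of tested members was 0.17, with quartiles at -0.53 and 0.89. It was 0.10 after each species was centred on its median, -0.01 after quantile normalization and -0.36 with equal totals, so the sign of the overall shift depends on the scaling. The median absolute departure was 0.706 over the tested genes, and the same quantity, each species against its own other 12, ran from 0.463 (D. simulans) to 0.746 (D. miranda). With single species, rho ran from 0.582 (D. virilis) to 0.689 (D. sechellia).

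Of the tested members, 490 had a D. ananassae change above all 12 other species, beside 14.1% of all tested genes, and 268 had one below all 12, beside 8.07%. In 355 of the former (all tested genes 10.2%) and 233 of the latter (6.86%) the departure was also at least 1 in size. The stage 5 level departed further than the stage 2 level in 265 of the 355 and in 186 of the 233, and the stage 2 level departed further in 90 and 47. The same share over all tested genes was not determined, so these counts do not set the genes apart. Low levels also move little on this scale, so an mRNA low at stage 2 in every species can depart there only slightly. D. ananassae had 17.1% of tested genes outside the range and departing by at least 1, and the other species, taken in the same way, had 6.46% (D. pseudoobscura) to 17.8% (D. miranda).

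**Figure D1:**
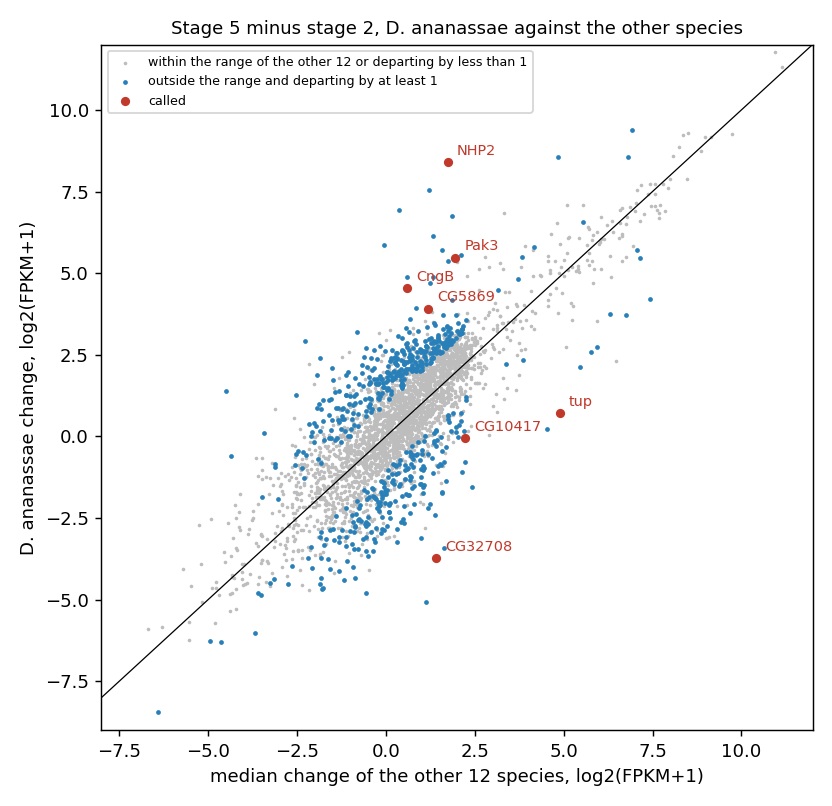
Change of the tested members in D. ananassae (vertical axis) against the median change of the other 12 species (horizontal axis), both on the log2(FPKM+1) scale, with the line of equality. Blue points lie outside the range of the other 12 and depart by at least 1 (355 above and 233 below), red points are called genes, and CG6005 (23.32) lies beyond the vertical axis.

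A gene was called when limma, fitted over all 3496 tested genes with D. ananassae against the 12 species, gave an adjusted p under 0.05 and the departure was at least 1 in size. The single D. ananassae value was taken to vary like the other species. By this rule 5 members had a higher change (all tested genes 0.143%) and 3 a lower one (0.0858%). At an unadjusted p under 0.05 the counts were 162 and 123. The SD of the change over the other 12 species had a median of 0.895, and for the called genes it ran from 0.277 to 1.02.

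NHP2 (GF25179), a protein of the H/ACA particles that modify ribosomal RNA, had the largest upward departure after CG6005. It was listed at 2.62e-08 FPKM at stage 2 in D. ananassae, whereas the other 12 species had 61.6 to 230 FPKM with a median of 97.8. At stage 5 the D. ananassae value of 336 FPKM lay within the 74.5 to 841 of the others. The departure was 6.65 (limma adjusted p = 0.000628). It lay at stage 2, where the value is one of those that can be a failed estimate.

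Pak3 (GF16514), a p21-activated kinase that regulates the actin cytoskeleton, also departed at stage 2. Its stage 2 level was 1.39 FPKM in D. ananassae against 8.28 to 45.1 with a median of 29.2 elsewhere, and at stage 5 it was 106 against 21.3 to 166 with a median of 114. The stage 2 groups did not overlap and the stage 5 value lay inside the range. The change of 5.48 exceeded that of all 12 others, which ran from 1.26 to 2.42, by a departure of 3.52 (limma adjusted p = 0.000628).

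CngB (GF11623), a subunit of a cyclic nucleotide-gated ion channel, departed at stage 5. Stage 5 held 33.4 FPKM in D. ananassae against 0.037 to 1.15 with a median of 0.537, and stage 2 held 0.478 against 0 to 0.232. The departure was 3.95 (limma adjusted p = 0.000628). Its mean over the 24 columns of the other species was 0.312 FPKM, so CngB was tested only because it is high in D. ananassae, and its p is no independent support. D. melanogaster, which was not in the test, had 39.99 FPKM at stage 2, far above D. ananassae and the other 12 at that stage.

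CG5869 (GF15327) was at 28.1 FPKM at stage 2 in D. ananassae, within the 26.1 to 72.3 of the others, and at 438 at stage 5, above their 50.1 to 135. Its departure was 2.73 (limma adjusted p = 0.0304). The call was lost without D. mauritiana, without D. pseudoobscura or without D. persimilis (highest adjusted p = 0.0575). CG6005 (GF23007) was deposited with 1.01e+08 FPKM at stage 5 against 4.92 to 65.9 elsewhere, the one D. ananassae value over 100000 FPKM, which can be a failed estimate, so its departure of 22.47 (limma adjusted p = 1.34e-09) is no measure of a level. At stage 2 it was at 8.68 FPKM, within the 7.62 to 44.1 of the others.

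Among the called genes with a lower change, tup (GF14867) encodes a LIM-homeodomain factor of the dorsal ectoderm and amnioserosa. It had 7.44 FPKM at stage 2 in D. ananassae against 0 to 0.0292 in the other species, and 12.9 at stage 5 against 12.5 to 40.3 with a median of 28.9. The mRNA was thus present before zygotic transcription in D. ananassae and near 0 at that stage in the other 12 and in D. melanogaster (0.014). Its change was 0.72 against 3.71 to 5.35, a departure of -4.18 (limma adjusted p = 0.00322).

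CG32708 (GF19191) was at 13.9 FPKM at stage 2, within the 2.75 to 67.3 of the others, and at 0.122 at stage 5, below their 52.8 to 155. Its departure was -5.14 (limma adjusted p = 0.0125). CG10417 (GF18976) had 77.1 FPKM at stage 2 against 63.2 to 171.5, and 74.6 at stage 5 against 294 to 660 with a median of 453. The mRNA of CG10417 stayed level in D. ananassae (change -0.05) and was higher at stage 5 by 1.73 to 2.75 in the others, a departure of -2.28 (limma adjusted p = 0.0309). That call was lost on leaving out any of 5 single species (D. simulans, D. mauritiana, D. yakuba, D. pseudoobscura or D. persimilis, highest adjusted p = 0.0578).

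Species share ancestry, which the test does not take into account. With generalized least squares on the species tree 2 of the 8 calls remained (CngB and CG6005), and with 1 mean per clade 2 remained (NHP2 and CG6005). With D. ananassae set against only 6 species, those of the melanogaster subgroup, all 8 remained. That setting called 65 members higher and 56 lower, so keeping the 8 says little. Without the species whose raw data were mixed 4 remained (NHP2, Pak3, CngB and CG6005).

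**Figure D2:**
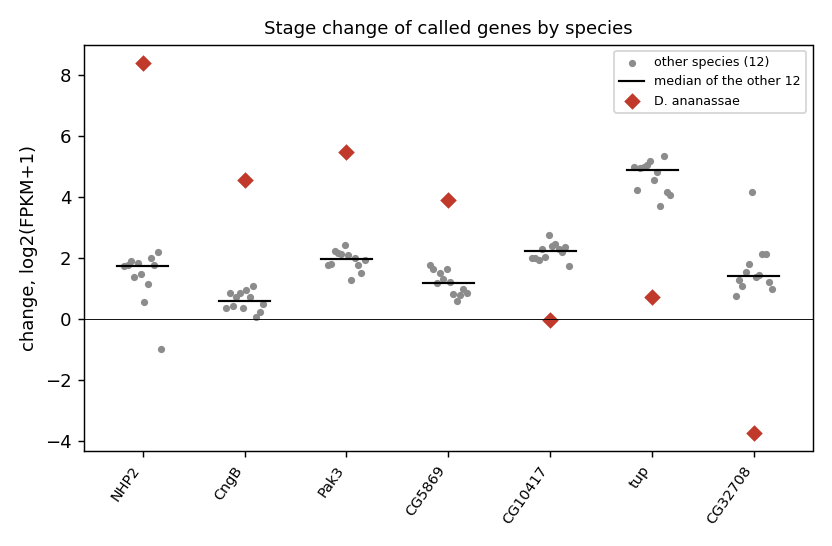
Change from stage 2 to stage 5 on the log2(FPKM+1) scale (vertical axis) of 7 called genes (horizontal axis), with 1 grey point per other species, a bar at their median and a red diamond for D. ananassae. The D. ananassae value lies outside the range of the other 12 for each gene, from 8.40 (NHP2) to -3.73 (CG32708).

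Levels at each stage were tested in the same way, with the median of the column subtracted, which shows where a departure lies but also carries the lengths of each species' gene models. At stage 2, 16 members were called higher in D. ananassae (all tested genes 0.458%) and 7 lower (0.257%). Without the test, 9.12% of tested genes lay above the other 12 species at stage 2 and 8.92% below them, and at stage 5 11.0% and 9.32%. D. melanogaster, which the test did not use, was below D. ananassae in each gene called higher and above it in each called lower. It is a close relative of the 6 species of the melanogaster subgroup, and raw data of several species are labelled as mixed with it. Its place among the others was thus likely beforehand and is no independent support. Of these 23 calls, 6 remained with generalized least squares on the species tree (tup, CG4301, CG42361, Ent3, sda and NHP2), 13 with 1 mean per clade and 9 without the species whose raw data were mixed. The calls of dib, COQ7, CG4069, MYPT-75D and CD98hc were among those lost on the tree.

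Of the 16 genes called higher at stage 2, many were near 0 there in the other species. The mRNA of dib (GF10095), a cytochrome P450 of ecdysone synthesis, was at 20.1 FPKM in D. ananassae and at 0 to 2.50 with a median of 0.0846 in the others. By stage 5 it was at 393 against 48.9 to 370. CG4301 (GF19566) was at 23.9 FPKM at stage 2 against at most 0.0739, and CG42361 (GF12994) at 17.7 against at most 0.688. These 3 mRNAs, like tup, had no overlap between D. ananassae and the rest at stage 2 (limma adjusted p of the level 0.000501 for dib and 1.59e-05 for CG42361). CG4301, Ent3 and sda had means of 0.0868, 0.224 and 0.238 FPKM over the 24 columns of the other species. They were tested only because they are high in D. ananassae, so their calls are a description.

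The nucleoside transporter gene Ent3 was at 8.08 FPKM against at most 0.221, the aminopeptidase gene sda at 5.81 against at most 0.0194, and melt, a membrane-binding adaptor of insulin signalling, at 4.60 against at most 0.924. The secreted factor genes miple and cv-2, of which cv-2 binds Bone morphogenetic proteins, were at 3.44 against at most 0.861 and at 1.56 against at most 0.464. The Golgi kinase gene fj was at 1.199 against at most 0.154, and CG7702 at 7.65 against at most 0.561. So tup and cv-2, which act in the patterning of dorsal tissue and of the wing veins in D. melanogaster, were measurable at stage 2 in D. ananassae at levels the other 12 did not reach. The call of tup was kept under all 26 alternatives. Those of cv-2, fj, miple and melt were lost with pseudocount 10, on the species tree and without the species whose raw data were mixed. That of CG7702 was lost with pseudocount 10 and on the tree, and that of sda with pseudocount 10.

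The other 5 were present at stage 2 in every species and higher in D. ananassae. COQ7, an enzyme of ubiquinone synthesis, was at 395 FPKM against 11.3 to 67.5 with a median of 31.7. CG4069 was at 170 against 12.0 to 44.5, and MYPT-75D, a targeting subunit of myosin phosphatase, at 98.7 against 14.9 to 33.2. The kinase anchor gene pkaap was at 65.9 against 24.1 to 36.1 and CG7510 at 79.9 against 23.3 to 38.5. The CG7510 call was lost without D. simulans, without D. yakuba or without D. santomea (highest limma adjusted p = 0.0633). COQ7 stayed high at stage 5 (205 against 1.82 to 37.2), so its change hardly departed (-0.04).

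The genes called lower at stage 2 were NHP2, Pak3, CG7261, CD98hc, CG14715, CG2662 and wus. CD98hc (GF16561), the heavy chain of an amino acid transporter, was at 17.3 FPKM against 75.8 to 197 with a median of 133. CG14715 was at 15.5 against 59.3 to 171, CG2662 at 2.48 against 17.4 to 74.1, and the J-domain gene wus at 8.95 against 30.7 to 72.4. CG7261 (GF14602) was listed at 1.31e-16 against 9.79 to 31.7, which like the NHP2 value can be a failed estimate. The CG2662 call was lost on leaving out any of 8 species (D. simulans, D. sechellia, D. yakuba, D. santomea, D. erecta, D. miranda, D. mojavensis or D. virilis, highest adjusted p = 0.0832). CD98hc reached 118 FPKM at stage 5, within the 28.9 to 364 of the others, so the low value was that of the maternal stage.

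At stage 5, 5 members were called higher (all tested genes 0.143%) and 5 lower (0.143%). Besides CngB and CG6005, the higher ones were Arp10, an actin-related subunit of dynactin (287 FPKM against 9.01 to 36.1), sda (35.4 against 0.011 to 2.82) and Ent3 (15 against 0 to 1.75). Thus sda and Ent3 were higher at both stages, and their stage change was not called. CngB, sda and Ent3 were tested only because they are high in D. ananassae. With the filter taken from the 24 columns of the other species alone, 1 higher call (CG6005) and 3 lower ones (CG32708, CG9705 and CG31195) remained. On the species tree, with clade means and without the species whose raw data were mixed, 2 of the 10 calls remained each time (CG6005 and CG32708). Besides CG32708, the lower ones were CG9705 (31.4 against 186.5 to 496), l(3)L1231 (13.03 against 66.1 to 165), CG31195 (34.9 against 128 to 222) and sog (12.5 against 51.4 to 177). The product of sog is a secreted antagonist of Dpp made in the neuroectoderm. Single species decided several of these calls. The call of Arp10 was lost without D. sechellia, D. yakuba, D. santomea, D. pseudoobscura or D. persimilis (highest limma adjusted p = 0.0667), and that of CG31195 without D. simulans, D. sechellia, D. yakuba or D. pseudoobscura (0.0633). That of l(3)L1231 was lost without any species other than D. mauritiana, D. miranda and D. virilis (0.076), and that of sog without any other than D. mauritiana and D. pseudoobscura (0.0894).

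**Figure D3:**
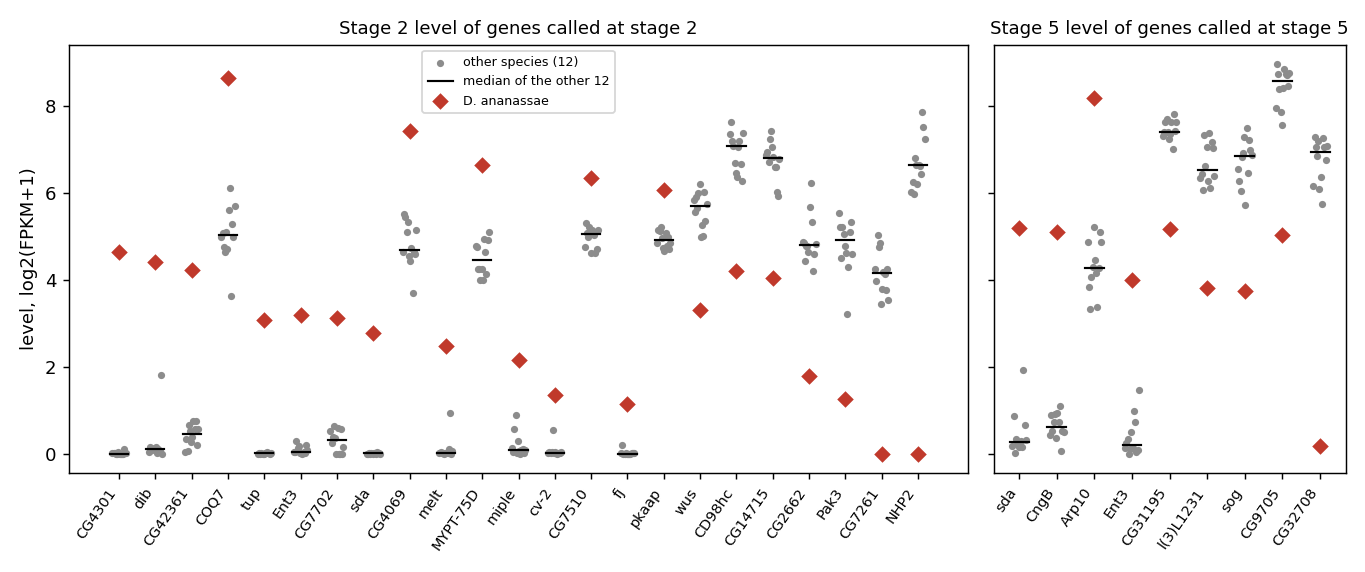
Level on the log2(FPKM+1) scale (vertical axis) of the 23 genes called at stage 2 (left panel) and 9 of the 10 called at stage 5 (right panel, CG6005 left out), with 1 grey point per other species, a bar at their median and a red diamond for D. ananassae. Many genes called higher at stage 2 lie near 0 in the other 12 species, for example CG4301, tup and sda.

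Some genes were on one side of 1 FPKM in D. ananassae alone. At stage 2, 9 genes were below 1 in D. ananassae and at 1 or more in all 12 others. The 5 with the highest levels elsewhere were NHP2, CG17270 (no member, 0.918 against 1.29 to 69.3), CG32022 (0.925 against 1.45 to 59.2), CG7261 and CG10731 (0.687 against 3.90 to 39.2). D. melanogaster was at 1 or more in all 9. The reverse held for 15 genes, led by CG4301, CG42361, Ent3, CG7702 and tup, and D. melanogaster was below 1 in all 15. As for the stage 2 calls, the place of D. melanogaster is no independent support.

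At stage 5, 26 genes were below 1 FPKM in D. ananassae alone. They were led by CG32708, cin (0.272 against 6.07 to 187), babos (no member, 0.560 against 4.30 to 148), CG2930 (no member, 0.122 against 2.14 to 205) and Rab3-GAP, a regulator of the Rab3 GTPase (0.380 against 3.67 to 58.0). In 2 genes the reverse was found, CG4301 (4.79 against at most 0.658) and Hexo2. Taken in the same way, each other species stood alone below 1 in 6 to 51 genes and alone at 1 or more in 2 to 15 at stage 5. At stage 2 these counts were 2 to 39 and 4 to 26, so the D. ananassae counts lay within those of the other species.

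In 27 of the 3325 tested members the D. ananassae change was at least 1 upward while the median of the others was at least 1 downward. Of these 27, 18 lay outside the range of the others. The same count was not made for the other species. Opposite directions also make a place outside the range likely, so neither this count nor the reverse one below sets D. ananassae apart. The largest departure was that of CG9917 (GF19082), at 73.3 FPKM at stage 2 and 194 at stage 5, where the others went from a median of 68.4 to one of 2.88. Second came bam (GF17434), needed for germline stem cell differentiation, with 25.2 and 197 FPKM against medians of 23.1 and 2.90. The stage 5 values of both lay above the highest of the others (49.6 and 35.2). DnaJ-H, a J-domain chaperone gene, went from 1.08 to 8.71 FPKM with a departure of 4.396 that lay inside the range of the others, CG5087 from 24.8 to 135 with one of 4.26, and alpha-Man-II, a Golgi mannosidase gene, from 18.7 to 72.5 with one of 3.84.

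The reverse held for 20 members, of which 16 lay outside the range. The mRNA of cin (GF22000) was at 41.9 FPKM at stage 2, within the 21.1 to 60.8 of the others, and at 0.272 at stage 5, while the others had a stage 5 median of 96.8. Its departure was -6.21 (limma adjusted p = 0.0748, so not called). Rab3-GAP followed CG32708 with a departure of -5.03, and CG1311 (53.5 to 17.7 FPKM, -3.96) and CG12129 (37.2 to 4.51, -3.88, inside the range of the others) came next. The mRNAs of cin, Rab3-GAP, CG1311 and CG12129 were maternally supplied at levels within the range of the others. For cin and Rab3-GAP the departure lay at stage 5 (level departures, with the column median subtracted, of -6.18 and -4.64, below all others). For CG1311 and CG12129 the level departure was larger at stage 5 (-2.93 and -3.28) but was also present at stage 2 (1.03 and 1.01). On that scale the stage 5 levels of CG1311 and CG12129 stayed inside the range.

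Further large departures outside the range were not called, and these genes were chosen after their values were seen. Upward, they included msd1, a subunit of the augmin complex (0.0818 to 131 FPKM, departure 6.56), the phospholipase gene GXIVsPLA2 (0.557 to 290, 6.32), Pallidin, of the BLOC-1 complex (19.4 to 1186, 5.91), CSN8, a COP9 signalosome subunit (1.07e-09 to 106, 4.87), and slam, which organizes the furrows of cellularization. The CSN8 value at stage 2 is among those that can be a failed estimate. The mRNA of slam was at 0.0165 FPKM at stage 2 against a median of 44.7 and a range of 0.0162 to 95.2, so another species was as low. Downward, they included Dmn, the dynamitin subunit of dynactin (40.7 to 3.84, -4.09), Gpi1 of glycolipid anchor synthesis (21.9 to 3.28, -3.79) and Cbs, cystathionine beta-synthase (24.8 to 1.74, -3.56). Pallidin stood out at stage 5, at 1186 FPKM against 1.62 to 98.0 in the others.

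Gene lists were described by counts and medians, beside the same values over all tested members (median departure 0.17, 490 of 3325 above all 12). The genes of the cytoplasmic ribosome were the list with the highest share outside the range. Of 38 tested ribosomal protein genes, 33 had a change above that in all 12 other species and 0 below. None was called by limma, with 16 higher and 0 lower at an unadjusted p under 0.05. Their median change was 2.75 in D. ananassae, and in the other species the median over the same genes ran from 1.62 (D. yakuba) to 2.39 (D. miranda). The departure lay at stage 5 (median level departure 0.80, stage 2 0.02). The median departure was 0.85, and 0.73 after centring, 0.27 with equal totals (all members -0.36) but -0.02 after quantile normalization, where the sign flipped.

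Single ribosomal protein genes showed the same spread. RpS21 was at 1628 FPKM at stage 2 and 16500 at stage 5, against 374 to 1809 and 985 to 7724 elsewhere, a departure of 1.63 (limma adjusted p = 0.372). RpLP2 departed by 1.33 and RpL29 by 1.22, whereas RpL3 did not exceed the others (-0.14). Reads of near-identical ribosomal protein genes may be split between copies, so single values are uncertain. With genes added that were measured in D. ananassae and 9 or more of the other 12, 65 of 76 lay above all others measured, beside 15.6% of all 6358 tested members of that wider table.

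Other housekeeping lists had smaller shares. Of 10 tested subunits of the vacuolar proton pump, which acidifies organelles, 3 lay above all 12 (Vha26, VhaPPA1-1 and VhaAC45) and 9 above the median. The median departure was 0.91 and positive under each of the 4 scalings (lowest 0.37), but at an unadjusted p under 0.05 there were 0 in either direction by limma. Of 43 mitochondrial ribosomal protein genes, 9 lay above and 2 below (mRpL37 and mRpL46), with a median departure of 0.32 that turned to -0.22 with equal totals. Of 6 subunits of the respiratory chain 1 lay above, SdhC (46.3 to 391 FPKM, departure 1.59), while with the added genes 27 of 55 lay above, 3 below and 1 was called lower (all members in that table, 15.6% above and 8.3% below). Of 18 proteasome subunits none lay outside the range, and their median departure was 0.03.

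In 3 lists of zygotic patterning genes the median departure was below 0, and in another it was above 0. Gap and terminal genes, which lay out the first body regions, had a median change of 5.11 against species medians of 4.12 to 6.03, and 1 of 7, Kr, lay below all 12 (51.3 FPKM at stage 5 against 59.9 to 232). Pair-rule genes, active in alternate segments, had 6.06 against 5.72 to 7.76, and 2 of 7, prd (102 against 129 to 451) and ftz (138 against 163 to 478), lay below. Segment polarity genes had 2.95 against 1.88 to 4.60, with the Hedgehog pathway kinase gene fu below (13.1 to 6.48 FPKM, departure -2.38) and the Wnt receptor gene fz above (16.3 to 41.04, departure 2.41). The median departures of these lists were -0.54, -0.62 and -0.51 and stayed below 0 under each scaling. None of their genes was called by limma, and at an unadjusted p under 0.05 there was 1, fz. The Bearded and Enhancer of split genes, also near 0 at stage 2 (median 0.0217 FPKM), went the other way. All 6 tested had a departure above 0, and 0 lay above all 12. Their median departure of 0.68 stayed above 0 under each scaling (lowest 0.36).

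Dorsoventral genes went both ways. Of 20 tested, tup was called lower, and 3 lay above all 12 (Mef2, rho and Doc3) and 3 below (net, sog and tup), with a median departure of -0.01. The mesoderm genes twi and sna were near the others (departures -0.13 and -0.43). The protease gene rho, which activates Egf receptor ligands, had 70.2 FPKM at stage 5 against 10.7 to 69.2, and the amnioserosa gene Doc3 had 83.7 against 18.3 to 77.9. At the low end, net had 42.9 FPKM at stage 5 against 81.8 to 219, and sog 12.5 as above, with a stage change departure of -3.03 (limma adjusted p = 0.0748). Thus in the dorsoventral list tup, sog and net held the largest downward departures outside the range.

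Genes of cellularization had the highest median change of all 13 species in D. ananassae, 6.32 against 3.09 to 5.40, over 6 tested genes. That median rests on few genes, of which slam alone lay above all 12, and the median departure of 0.29 turned to -0.20 with equal totals. None was called by limma, and slam alone passed an unadjusted p under 0.05.

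Of 9 maternal axis genes 1 lay below all 12, osk, whose stage 5 value of 1.86e-05 FPKM compares with 0.769 to 11.1 elsewhere and is among those that can be a failed estimate. Of 14 germ plasm genes 3 lay above all 12 (btz, BicD and tsu) and 1, osk, below, with a median departure of 0.46 that was -0.08 with equal totals. BicD, an adaptor of dynein transport, was at 55.8 FPKM at stage 2 and 30.8 at stage 5, where the others had 0.958 to 42.4. Of 7 regulators of maternal mRNA, the helicase gene bel (96.3 to 22.5 FPKM) and cort, an activator of the anaphase-promoting complex in meiosis (75.4 to 0.186), lay below all 12. The median change of these regulators was -1.84 against species medians of -1.41 to -0.08, and the median departure was -0.09. No gene of these 3 lists was called by limma, and at an unadjusted p under 0.05 there were 1 higher and 2 lower over the 3 lists.

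The list of genome activation factors had 3 tested genes, with a median departure of 0.29. Stat92E (departure 0.55) and Snr1 (0.29) lay inside the range of the others. E(z), a repressive Polycomb methyltransferase, lay below all 12 with a change of 0.14 against 1.18 to 2.47. Its stage 2 level of 119 FPKM was above the 20.3 to 76.5 of the others and its stage 5 level of 131 was within their 74.9 to 329. The departure was -1.84 (limma adjusted p = 0.176).

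**Figure D4:**
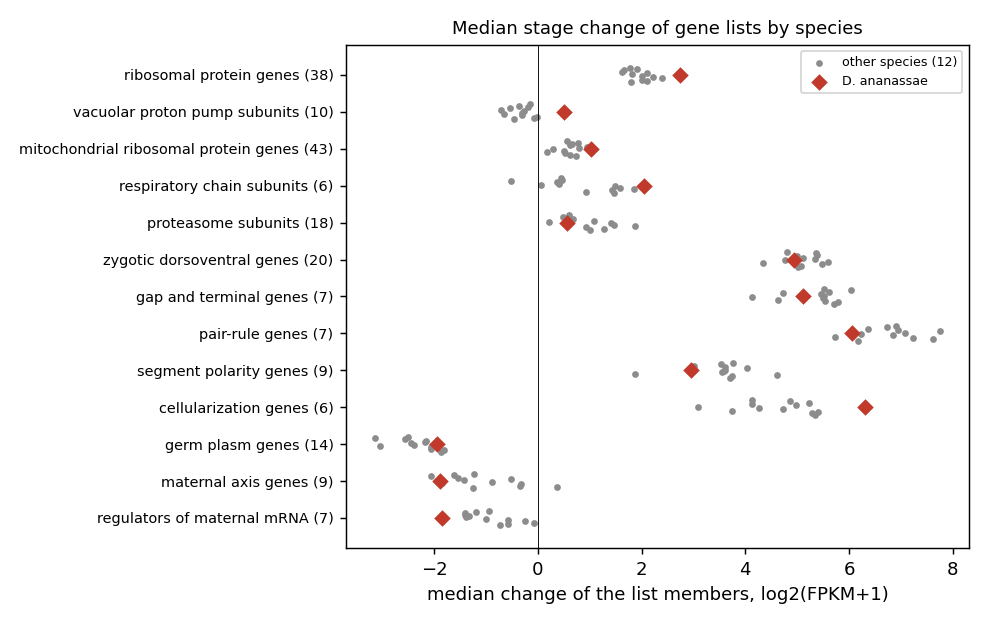
Median change from stage 2 to stage 5 on the log2(FPKM+1) scale (horizontal axis) over the tested members of 13 gene lists (vertical axis, number of genes in brackets), with 1 grey point per other species and a red diamond for D. ananassae. D. ananassae lies above the other 12 for ribosomal protein genes (2.75 against 1.62 to 2.39), whose median departure is -0.02 after quantile normalization. It also lies above them for vacuolar proton pump, mitochondrial ribosomal protein, respiratory chain and cellularization genes. It lies below them for regulators of maternal mRNA (-1.84), whose median departure over single genes is -0.09.

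The 401 genes below 1 FPKM at both stages in D. ananassae are no members. In 114 of them the median of the other 12 reached 1 at a stage. The highest such medians were those of CG5541 (stage 2 0.185 in D. ananassae against a median of 58.1), babos, CG2930, CG3502 (stage 5 listed at 0 against a median of 36.4) and CG9121 (stage 5 0.161 against a median of 35.7). One more, chosen after its value was seen, is the FoxA factor gene fkh of the terminal regions, at 0.818 FPKM at stage 5 against a median of 34.7. The lowest other value of fkh was 0.000126 FPKM, which is close to those that can be a failed estimate.

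Where the other species' median change was -1 or lower, the D. ananassae change lay higher in 64.2% of 629 tested genes, with a median departure of 0.49. The same quantity ran from -0.33 (D. simulans) to 0.57 (D. willistoni) among the other species, with -0.33 to 0.05 in the melanogaster subgroup and 0.16 to 0.57 in the more distant species. On the values as deposited, D. ananassae thus lay with the more distant species for mRNAs that declined elsewhere. These medians were not determined under the other scalings, on which the sign of the overall shift depends. Each species of the melanogaster subgroup was also set against a median that holds its close relatives, and the effect of this was not tested. Where the other species' median was 1 or higher, the median departure was 0.14 over 1165 genes, beside -0.25 (D. virilis) to 0.08 (D. persimilis). No test was made of these medians.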

How the data were processed

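The source was single-embryo Illumina libraries, per the labels' protocols. The submitters' processing notes name cutadapt, TopHat2, Cufflinks, Cuffnorm and Cuffdiff; no version or genome build is stated in the sources used here. The authors deposited 1 value per gene, species and stage, taken as FPKM from the tools named and the range of the values. Because both stages of a species share a gene model, transcript length largely cancels in the stage change, other than for low mRNAs through the pseudocount, but not in a level between species. Of the columns, 2 (D. melanogaster stage 5, 1 in each table) were tied to no sample and not used. The wider table of 17674 genes has column names 1 place to the right of their values. Its values equal those of the main table for all 3764 shared genes.

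Values were taken as log2(FPKM+1) (pseudocount 1), which understates changes of low mRNAs. Genes with a mean of at least 1 FPKM over 26 columns (3496) were fitted with limma 3.58.1 in R 4.3.3 (D. ananassae against 12 species, eBayes with trend, two-sided, Benjamini-Hochberg adjustment over all 3496 genes). Of the tested members, 8 reach that mean only through their D. ananassae values. Calls needed an adjusted p under 0.05 and a departure of at least 1. Stage levels were centred on the column median first. The tree alternative used ape 5.8.1, and figures matplotlib 3.10.9. Of the symbols, 3106 match current ones.

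Members, lists and tests were chosen with earlier results of these data known. Genes were named by rule: called genes; genes changing by at least 1 in opposite directions (5 largest each way); genes alone on one side of 1 FPKM (5 highest per class); non-members with the highest median elsewhere (5); and list members. Genes called in a stage level were named as well. Genes named outside this rule are marked in the text as chosen after their values were seen. Lists not described there, or only in part (sex determination, dosage compensation, cell cycle, DNA replication, heat shock, glycolysis, piRNA, small RNA, Polycomb, Bearded and Enhancer of split, Toll-family, innexin, nuclear receptor, cell death, translation factor, neuron, blood, testis and gut genes), had no called member. At an unadjusted p under 0.05 limma gave them at most 1 higher and 2 lower per list.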

Additional observations from a re-analysis of the deposited data

Results flagged for a closer look

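In 8 genes limma found that the stage change of D. ananassae differed from that of the other 12 species. The departures, D. ananassae minus the median of the others on the log2(FPKM+1) scale, were 22.47 for CG6005, 6.65 for NHP2, 3.95 for CngB, 3.52 for Pak3 and 2.73 for CG5869 upward. Downward they were -5.14 for CG32708, -4.18 for tup and -2.28 for CG10417. The CG6005 value rests on 1.01e+08 FPKM at stage 5 and the NHP2 value on 2.62e-08 FPKM at stage 2, and whether either is a failed estimate was not tested. CngB was tested only because it is high in D. ananassae. For tup and Pak3 the stage 2 level set D. ananassae apart and was called. For CngB, CG5869, CG32708 and CG10417 the stage 5 level lay outside the range of the others. That level was called for CngB and CG32708 but not for CG5869 and CG10417.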

How the results depend on the processing

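Gene by gene, 1707 of 1917 values under the alternatives kept their direction and side of the threshold, 175 fell short of it, 35 came to pass it and 0 changed sign. These values cover 69 results of named genes, most of them picked for a call or a large departure, so a change of sign was unlikely. A gene not called that stayed so counts as kept, so the share kept is no measure of how stable the calls were. Counts are given as higher and lower. For the stage change (5 and 3) they were 2 and 0 with generalized least squares on the tree as well as with 1 mean per clade, 65 and 56 with the melanogaster subgroup alone and 12 and 10 in the wider table. The lower count was 5 with pseudocount 0.1, without the filter and after centring, 11 with quantile normalization, 18 with equal totals and 1 without the species whose raw data were mixed with D. melanogaster. The 0 lower calls came from limma. For the stage 2 level (16 and 7) they were 5 and 1 with the tree, 10 and 3 with clade means, 58 and 66 with the subgroup and 8 and 3 without the mixed species. The higher count was 25 without the filter, and the lower one 3 with pseudocount 10 and 4 with quantile normalization. For the stage 5 level (5 and 5) they were 1 and 1 with the tree, with clade means and without the mixed species, 38 and 37 with the subgroup, and 9 and 9 with quantile normalization. The higher count was 2 with pseudocount 0.1 and 22 with pseudocount 10, and the lower one 11 with equal totals. Within D. ananassae, 872 were higher with quantile normalization and 362 with equal totals, and 427 were lower with pseudocount 10 and 1789 with equal totals. The cause of these shifts was not tested.

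Leaving out each species in turn gave 4 to 6 and 2 to 6 calls of the stage change, 15 to 18 and 6 to 9 of the stage 2 level and 4 to 7 and 2 to 6 of the stage 5 level. Of the 8 calls of the stage change, 4 remained with pseudocount 10. Alternatives chosen after seeing the data gave 4 or 5 higher calls of the stage change (without genes with a value of 100000 FPKM or more, without genes listed at 0 in D. ananassae, with a median of at least 5 FPKM, or with the filter taken from the other species alone). That last filter gave 13 and 6 calls of the stage 2 level and 1 and 3 of the stage 5 level. No paired analysis was possible because the replicate numbers are those of single embryos and each column holds 1 value per species and stage. With 1 D. ananassae value per stage and unknown depth, no spread between embryos could be given, and small departures are not detectable.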

Other observations

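In the wider table, which adds genes that lack an ortholog in some species, 6358 tested genes were at 1 FPKM or more in D. ananassae, and limma called 12 of them higher and 10 lower in their stage change. The 8 calls of the main table were among them. The homeobox gene al, which patterns distal appendages in D. melanogaster, was at 214 FPKM at stage 2 and 1673 at stage 5 in D. ananassae, while 10 other species measured had at most 1.34 and 1.15 (departure 2.96, limma adjusted p = 0.0161). The cell surface receptor gene dpr2 was at 641 FPKM at stage 2 and 20.5 at stage 5 against medians of 0.00906 and 0.181 (departure -5.03, adjusted p = 0.0112). Idgf1, a chitinase-like growth factor gene, was at 33.8 and 220 FPKM against at most 0.709 and 1.59. Another upward call, CG14658, went from 0 to 97.1 FPKM against at most 0.212 and 1.38. Named after their values were seen, these 4 were near 0 at both stages in most other species. Their means over the other species were 0.145 FPKM (al), 0.891 (dpr2), 0.128 (Idgf1) and 0.219 (CG14658), so they were tested only because they are high in D. ananassae, and their p is no independent support.

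The complex I subunit gene ND-42 was called lower in the wider table and went from 49.3 to 4.42 FPKM against medians of 56.3 and 93.8 (departure -4.41, limma adjusted p = 0.033). The aminopeptidase gene ApepP went from 17.6 to 0.739 against medians of 53.5 and 213 (departure -5.48, adjusted p = 0.0114). Its stage 2 range elsewhere began at 41.2, so both stages were low. RpI12, an RNA polymerase I subunit gene, was called higher with 12.0 and 156 FPKM against medians of 45.2 and 39.8 (departure 3.58, adjusted p = 0.0215).

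The protease gene tld, an activator of Dpp signalling that is zygotic elsewhere, resembled tup at stage 2. It was at 22.3 FPKM at stage 2 in D. ananassae against a median of 0.0181, and at 95.8 at stage 5 against a median of 82.5. Its departure of -4.26 was not called (limma adjusted p = 0.232), and it too was named after its values were seen. The early zygotic genes zen and ind had changes above the others measured, with departures of 0.79 and 0.99, and run and slp2 below, with departures of -0.46 and -1.33; none of these was called.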
